A study of Mus musculus with 6 samples.

Results

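The genes described here are 10 markers and regulators of B-1 cells: Cd5, Spn, Ctla4, Pdcd1lg2, Fcrl5, S100a6, Bhlhe40, Bhlhe41, Arid3a and Zbtb32. They were chosen by symbol, and every probe annotated to them was taken, which gave 15 of the 45281 probes on the array. Of these, 9 probes of 8 genes were detected well enough to be tested, among 9297 tested genes in all. RNA came from freshly isolated splenic B cells of 3 Sle2 mice (B6.Sle2, a congenic strain on the C57Bl/6 background with the Sle2 lupus susceptibility locus of chromosome 4 from NZM2410) and 3 wild-type B6 mice, with 1 Illumina BeadChip per mouse. Both strains share the C57Bl/6 background, and the labels give neither the age nor the sex of the mice, nor how the B cells were isolated. In the annotation used, 0 of the 10 genes lie on chromosome 4.

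B-1 cells are a self-renewing B cell lineage, largely of fetal origin, that is common in the body cavities and rare in the spleen, and that secretes natural, often polyreactive antibody. They are told apart from conventional (B-2) B cells by surface CD43 and, for the B-1a subset, CD5. The basic helix-loop-helix repressors encoded by Bhlhe41 and Bhlhe40 maintain the B-1a pool, and Arid3a acts in the fetal programme that produces it. The series title names B-1 cells, so the comparison of the strains asks whether their transcripts differ in splenic B cells.

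Median raw intensity was between 53.6 and 56.7 on the Sle2 arrays and between 50.4 and 52.1 on the B6 arrays, and between 17417 and 17923 probes were detected per array. The B cell genes Cd79b, Ms4a1, Pax5, Cd22, Ebf1 and Blk were all measured, and their summed level was between 22313 and 22838 in Sle2 and between 22234 and 24840 in B6. Most of that sum came from Cd79b, at a mean of 13.70 on the log2 scale in Sle2 and 13.85 in B6. Pax5, encoded on chromosome 4, lay near the detection limit and was detected in 2 of 3 B6 mice. T cell genes were present in both strains. Xist, which is transcribed from the inactive X chromosome, was at 10.93 on the log2 scale in Sle2 mouse 3 and at 10.13 in B6 mouse 2. In Sle2 mice 1 and 2 and B6 mouse 1 it was at 4.36, 4.30 and 4.33. The Y-linked Eif2s3y was at 8.33, 8.39 and 8.44 in those 3 mice and at 4.65 in B6 mouse 2. Both Xist and Eif2s3y were detected in Sle2 mouse 3, with Eif2s3y at 5.36, and in B6 mouse 3, with Xist at 5.89 and Eif2s3y at 8.67. Sex-linked transcripts thus differed between mice of the same strain. Values are therefore given per mouse, and the main comparisons also without each mouse.

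Across all genes, 97 of 9297 (1.04%) were called between the strains by limma at a Benjamini-Hochberg adjusted p under 0.05, 0.656% higher and 0.387% lower in Sle2. Of the 8 tested B-1 genes, 0 were called by limma, and 5 had an unadjusted p under 0.05, as did 16.9% of all tested genes. These were 3 higher and 2 lower in Sle2, against 10.5% and 6.45% of all genes. The strains did not overlap for 4 of the 8, against 24.2% of all tested genes. Bhlhe40 and Pdcd1lg2 were higher in every Sle2 mouse than in any B6 mouse (2 of 8, against 14.7%), and Arid3a and S100a6 were lower (2 of 8, against 9.45%). These shares describe genes chosen with earlier results known, and 8 genes are few. The 8 are not all the B-1 genes listed, because the other 2 could not be measured. With 3 mice against 3, the smallest two-sided p of an exact permutation test is 0.1, so single genes cannot pass 0.05 by that test. In bulk RNA, fewer cells of a type and less RNA per cell cannot be told apart.

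Cd5 and Bhlhe41, which mark B-1a cells most directly, were not measurable. Cd5 encodes a surface glycoprotein that dampens antigen receptor signalling, and it has 1 probe, annotated to a cDNA clone rather than to a RefSeq transcript. Its raw intensity was 49.3, 38.3 and 42.3 in Sle2 mice 1, 2 and 3, against 44.2, 49.2 and 40.4 in B6 mice 1, 2 and 3. The lowest intensity called detected was between 58.5 and 66.5 on the same arrays, so Cd5 was below it on every array of both strains. Its detection p-values were between 0.229 and 0.968.

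Bhlhe41 encodes DEC2, a repressor that binds E-box DNA. Its 1 probe gave raw intensities of 39.3, 44.6 and 42.6 in Sle2 mice and 39.4, 43.7 and 39.5 in B6 mice, again below the detection limit on every array. A probe that does not respond and a transcript that is scarce cannot be told apart from these values, and neither gene has a second probe. No strain difference was therefore tested for Cd5 or Bhlhe41.

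**Figure D1:**
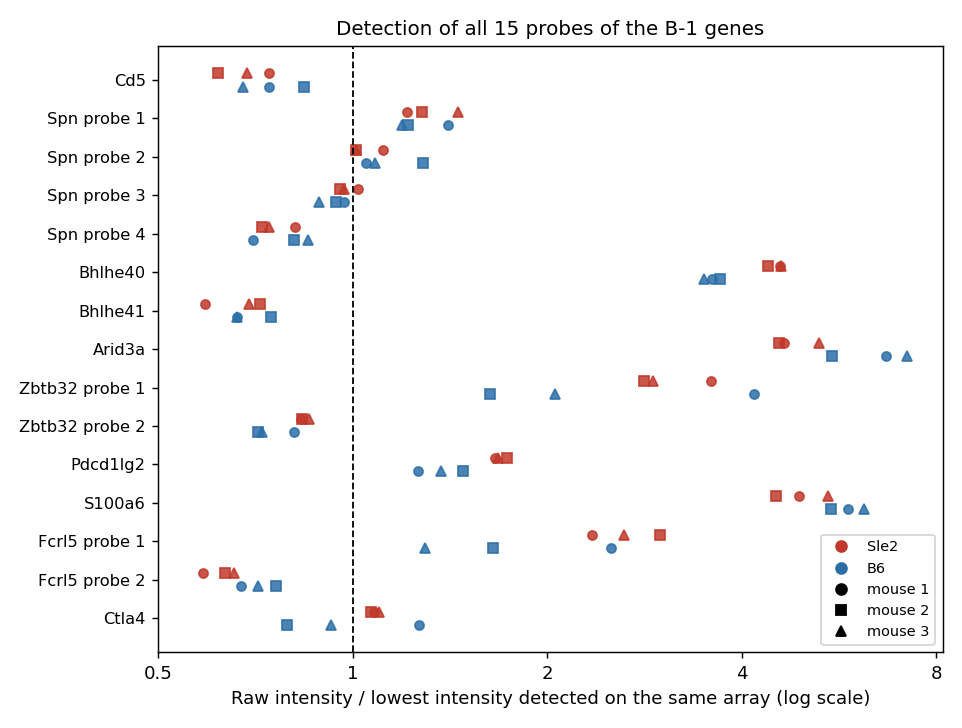
Raw intensity of each of the 15 probes divided by the lowest intensity called detected on the same array (log axis, dashed line at 1), with Sle2 in red above B6 in blue and 1 symbol shape per mouse number. Cd5 and Bhlhe41 lie left of the line on all 6 arrays, while Bhlhe40, Arid3a and S100a6 lie far to the right of it.

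Bhlhe40 encodes DEC1, the close relative of DEC2, and it was measurable on all 6 arrays. Its normalized log2 level was 7.95, 7.89 and 7.87 in Sle2 mice 1, 2 and 3, against 7.63, 7.69 and 7.49 in B6 mice 1, 2 and 3. Every Sle2 mouse lay above every B6 mouse. The difference was 0.30 on the log2 scale (SE 0.10, 95% interval 0.08 to 0.52), a 1.23-fold higher level in Sle2, and it did not pass the test (adjusted p = 0.183).

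DEC1 and DEC2 bind the E-box CACGTG, a palindrome that reads the same on both strands. RefSeq promoter windows of GRCm38.p6, from 250 bases before to 50 after a gene's start, were at hand for 8 of the 10 genes (9 windows). The motif occurred in 2 of these windows, those of Bhlhe41 and S100a6, and in 7.15% of all 32851 windows. The E-box is in capitals in both matches, the first given as the 250 bases upstream of Bhlhe41 (chr6:145865421-145865670, minus strand), where the motif begins 153 bases before the start, and the second given as 30 bases of S100a6 that open at the third base of the transcript (chr3:90612896-90612925, plus strand), so that the motif begins at transcript base 15.
Bhlhe41: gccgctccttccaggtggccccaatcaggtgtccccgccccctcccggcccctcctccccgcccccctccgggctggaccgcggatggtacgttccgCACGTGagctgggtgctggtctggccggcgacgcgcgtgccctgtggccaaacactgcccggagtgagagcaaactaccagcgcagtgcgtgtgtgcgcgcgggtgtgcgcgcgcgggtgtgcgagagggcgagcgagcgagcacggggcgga
S100a6: agagtttcgagtCACGTGccagaagggaaa
A match describes these letters and is no evidence of binding in these cells.

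Arid3a, also called Bright, is an AT-rich DNA-binding transcription factor that promotes immunoglobulin heavy chain transcription and B-1 development. Its level was 7.97, 7.96 and 8.08 in Sle2 mice 1, 2 and 3, against 8.66, 8.35 and 8.65 in B6 mice 1, 2 and 3. All 3 Sle2 mice lay below all 3 B6 mice. The difference was -0.55 on the log2 scale (SE 0.11, 95% interval -0.81 to -0.29), a 1.46-fold lower level in Sle2, with the smallest p of the 8 genes. It missed the threshold over all probes (adjusted p = 0.0710). Arid3a did pass in 4 of its 18 alternatives: without background correction (adjusted p = 0.0298), with the series matrix values (adjusted p = 0.0305), under a trended robust prior (adjusted p = 0.0117) and with an offset of 50 (adjusted p = 0.0325). Over all 18 the adjusted p was between 0.0117 and 0.215, and the difference between -0.65 and -0.41.

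Zbtb32 encodes a zinc finger repressor that is high in B-1 cells and restrains secondary antibody responses. Its detected probe was at 7.54, 7.15 and 7.13 in Sle2 mice 1, 2 and 3, against 7.88, 6.16 and 6.54 in B6 mice 1, 2 and 3. B6 mouse 1 had the highest level of all 6 mice, while B6 mice 2 and 3 lay below every Sle2 mouse. The difference was 0.42 (SE 0.38, 95% interval -0.44 to 1.27, adjusted p = 0.603). Without B6 mouse 1 it was 0.93 (adjusted p = 0.0491), and without B6 mouse 2 it was 0.07 (adjusted p = 0.957). The other Zbtb32 probe was not detected on any array.

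**Figure D2:**
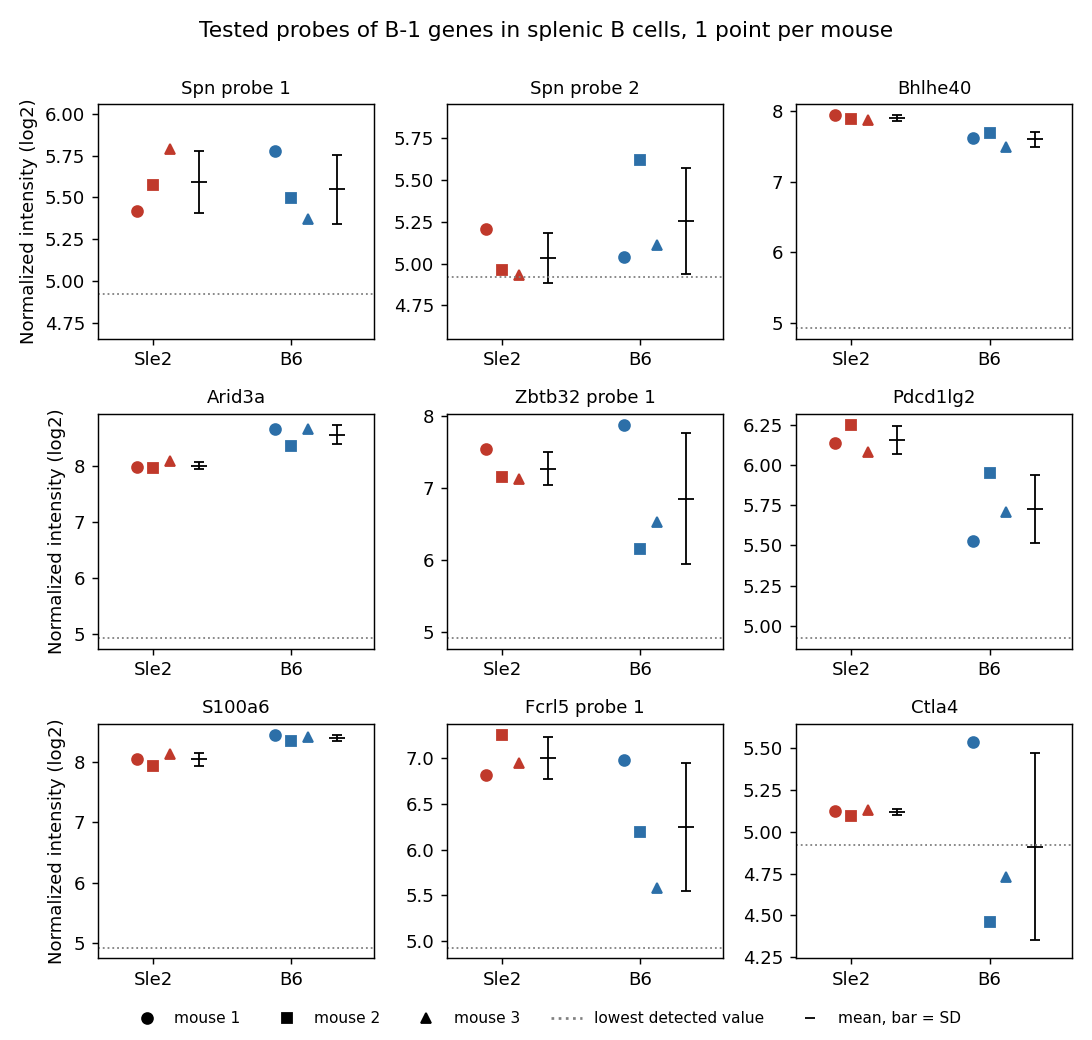
Normalized log2 intensity of the 9 tested probes, 1 panel per probe, with the Sle2 mice left of the B6 mice, the mean and SD of 3 mice beside each group, and a dotted line at the mean of the 6 arrays' lowest detected value. Arid3a and S100a6 are lower in all Sle2 mice and Bhlhe40 and Pdcd1lg2 higher, while B6 mouse 1 (circle) lies among or above the Sle2 mice for Zbtb32, Fcrl5 and Ctla4.

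Among the surface molecules, Fcrl5 had the largest difference. It encodes an Fc receptor-like protein that in mice is found on B-1 and marginal zone B cells. Its detected probe was at 6.82, 7.26 and 6.94 in Sle2 mice 1, 2 and 3, against 6.98, 6.19 and 5.58 in B6 mice 1, 2 and 3. The Sle2 mice were close together, and B6 mouse 1 lay among them. The difference was 0.76 (SE 0.30, 95% interval 0.07 to 1.45), a 1.69-fold higher level in Sle2 that did not pass (adjusted p = 0.256). Without B6 mouse 1 it was 1.12 (adjusted p = 0.0476), and without B6 mouse 3 it was 0.42 (adjusted p = 0.472). The other Fcrl5 probe, annotated to the same transcript, was not detected on any array.

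Of 10 marginal zone genes listed and tested, 8 had a positive difference, with a median of 0.59 against 0.02 for all genes. This list was chosen with earlier results of these data known, so its shares are descriptive. It shares Cd9 with the list of other B-1-enriched genes below. Called higher were 2 of the 10, against 0.656% of all tested genes, Cd1d1 (0.56, adjusted p = 0.0391), which presents lipid antigens, and Rgs10 (0.67, adjusted p = 0.0474), a regulator of G protein signalling. The 1 called lower, against 0.387% of all tested genes, was Pik3r4, a regulatory subunit of a phosphoinositide kinase complex encoded on chromosome 9, which was not well above background in any Sle2 mouse and was at least 1.29-fold lower there (adjusted p = 0.0195). Each of the 3 missed the threshold without at least 4 of the mice in turn, with adjusted p up to 0.153, 0.172 and 0.0941, and Cd1d1 (0.0645) and Rgs10 (0.0715) also with the mouse number as a block. The summed level of the 10 was between 8877 and 9009 in Sle2 and between 5400 and 6652 in B6, where B6 mouse 1 had the 6652. The part of marginal zone cells in the Fcrl5 values was not tested.

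Pdcd1lg2 encodes PD-L2, a ligand of the inhibitory receptor PD-1 that in mice is displayed by a subset of B-1 cells and by dendritic cells and macrophages. Its level was 6.14, 6.25 and 6.08 in Sle2 mice 1, 2 and 3, against 5.53, 5.95 and 5.71 in B6 mice 1, 2 and 3. The strains did not overlap, and here B6 mouse 1 was the lowest of all 6. The difference was 0.43 (SE 0.13, 95% interval 0.14 to 0.71), a 1.35-fold higher level in Sle2 (adjusted p = 0.151). With single mice left out it was between 0.33 and 0.54.

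Of 8 dendritic cell markers, 4 were tested and 0 were called by limma, while 1 had an unadjusted p under 0.05, against 16.9% of all tested genes. Itgax and Clec10a were not detected on any array. Their summed level was between 294 and 515 in Sle2 and between 249 and 389 in B6, with Siglech at 0.49 (adjusted p = 0.377) and Xcr1 at -0.33 (adjusted p = 0.147). The 11 macrophage and monocyte genes, all tested, summed to between 10831 and 16748 in Sle2 and between 13320 and 16906 in B6. Of the 11, 0 were called by limma and 1 had an unadjusted p under 0.05, while 6 had a positive and 5 a negative difference. The smallest p were those of Spic at -0.41 (adjusted p = 0.241) and Lyz2 at 0.44 (adjusted p = 0.314). The part of these cells in the Pdcd1lg2 level was not tested.

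Spn encodes CD43, a sialoglycoprotein that B-1 cells, plasma cells and T cells carry and resting B-2 cells lack. It had 4 probes, of which 2 were detected on all 6 arrays, 1 on 1 array and 1 on none, and the detected ones lay just above the limit. The brighter probe was at 5.42, 5.57 and 5.79 in Sle2 mice 1, 2 and 3, against 5.78, 5.50 and 5.37 in B6 mice 1, 2 and 3. The strains overlapped throughout, and the difference was 0.05 (SE 0.14, 95% interval -0.27 to 0.36, adjusted p = 0.898). The second tested probe, annotated to the other RefSeq transcript variant, had the opposite sign at -0.22 (SE 0.16, 95% interval -0.60 to 0.15, adjusted p = 0.513). The upper ends of these intervals correspond to levels 1.29-fold and 1.11-fold those of B6, in probes close to background.

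Ctla4 encodes an inhibitory receptor for CD80 and CD86 that is best known from T cells and is also transcribed in B-1a cells. It was detected in all 3 Sle2 mice and in 1 of 3 B6 mice. Its level was 5.13, 5.10 and 5.13 in Sle2 mice 1, 2 and 3, against 5.53, 4.46 and 4.73 in B6 mice 1, 2 and 3. B6 mouse 1 again had the highest value, and the other B6 mice were under the detection limit. The difference was 0.21 (SE 0.24, 95% interval -0.33 to 0.74, adjusted p = 0.686), and without B6 mouse 1 it was 0.52 (adjusted p = 0.0697).

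T cell markers were measurable beside Cd5, Spn and Ctla4, which T cells also express. Of 16 listed, 11 were tested and 0 were called by limma. At an unadjusted p under 0.05, 5 were higher and 0 lower, against 10.5% and 6.45% of all tested genes. Their median difference was 0.35, against 0.02 for all genes, led by Bcl11b (0.69, adjusted p = 0.0678), a T lineage transcription factor, and Zap70 (0.50, adjusted p = 0.145), a T cell receptor kinase. Bcl11b passed in 5 of 17 alternatives, among them the fit with the mouse number as a block (adjusted p = 0.0319), and its adjusted p over all 17 was between 0.0319 and 0.221. This Bcl11b probe was detected in 1 of 3 B6 mice, and the gene's other tested probe was at 0.24 (adjusted p = 0.562). Zap70 was at 7.04, 7.14 and 6.86 in Sle2 mice 1, 2 and 3, against 6.80, 6.38 and 6.36 in B6 mice 1, 2 and 3, so B6 mouse 1 was the highest of its strain, as it was for Ctla4. The summed level was between 1816 and 2115 in Sle2 and between 1819 and 1882 in B6. Most of that sum came from Cd8b1, by far the brightest of the 11, at a mean of 10.17 in Sle2 and 10.24 in B6. The sum thus mainly follows Cd8b1 (difference -0.06) and says little about the other T cell genes. Cd4, Cd8a and Trat1 were not detected on any array. The part of T cells in the Ctla4 and Spn values was not tested.

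S100a6 encodes calcyclin, a calcium-binding protein of the S100 family that is high in B-1 and memory-like lymphocytes and in myeloid cells. Its level was 8.06, 7.94 and 8.14 in Sle2 mice 1, 2 and 3, against 8.45, 8.35 and 8.41 in B6 mice 1, 2 and 3. All Sle2 mice lay below all B6 mice, and the mice of each strain lay close together. The difference was -0.36 (SE 0.10, 95% interval -0.58 to -0.13), a 1.28-fold lower level in Sle2 that missed the threshold (adjusted p = 0.135). With single mice left out it was between -0.40 and -0.30. The 8 tested neutrophil markers of 10 summed to between 1682 and 1729 in Sle2 and between 786 and 2661 in B6, with Ltf at 0.86 (adjusted p = 0.176). Most of that sum came from S100a8, at a mean of 9.86 in Sle2 and 9.57 in B6 (difference 0.30, adjusted p = 0.747). The part of neutrophils in the S100a6 values was not tested.

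**Figure D3:**
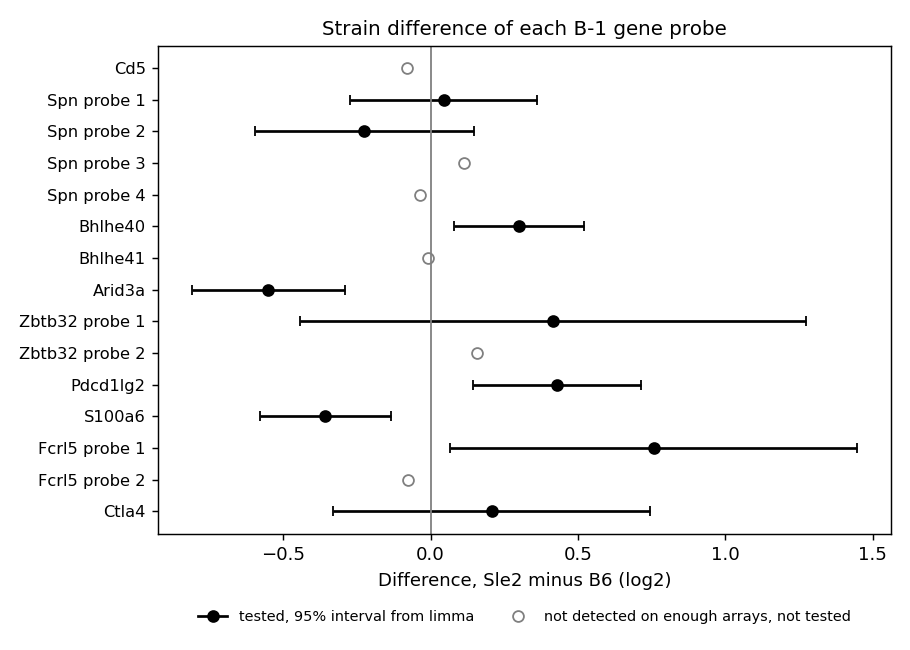
Difference of Sle2 minus B6 on the log2 scale for each of the 15 probes, with limma's 95% interval for the 9 tested probes (filled) and the value alone for the 6 others (open). The intervals of Arid3a and S100a6 lie below 0, those of Bhlhe40, Pdcd1lg2 and Fcrl5 above it, and those of Spn, Zbtb32 and Ctla4 include it.

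The direction of the genes was thus split. Of the 8 tested, 6 had a positive difference, from 0.05 for Spn to 0.76 for Fcrl5. For 2 of these the sign was not stable: the other tested Spn probe was at -0.22, and Ctla4 was at -0.016 without B6 mouse 2. Arid3a and S100a6 were lower in all 3 Sle2 mice and kept a negative difference in all 18 alternatives each. Scaling the arrays to equal medians moved the median of all genes to 0.14, and Arid3a was at -0.41 and S100a6 at -0.22 there. CD43 transcripts did not differ beyond their spread, and CD5 and DEC2 transcripts could not be read. The median of the 8 was 0.25, against 0.02 for all tested genes, and it was 0.04 without B6 mouse 2 and between 0.18 and 0.32 without any other single mouse.

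B6 mouse 1 was the highest of its strain for Zbtb32, Fcrl5, Ctla4 and the brighter Spn probe, and there it was also above at least 1 Sle2 mouse. It was the highest of its strain for Arid3a (8.66, with the next B6 mouse at 8.65) and S100a6 (8.45, with the next at 8.41) too, where all B6 mice were above all Sle2 mice. For Bhlhe40 and Pdcd1lg2 it lay below every Sle2 mouse. Without it, 2 of the 8 genes were called, Fcrl5 and Zbtb32, against 143 of all 9297 tested genes. Without any other single mouse 0 of the 8 were called, against between 28 and 56 of all tested genes. With all mice 97 of all tested genes were called, so the count over all genes also rose without B6 mouse 1.

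**Figure D4:**
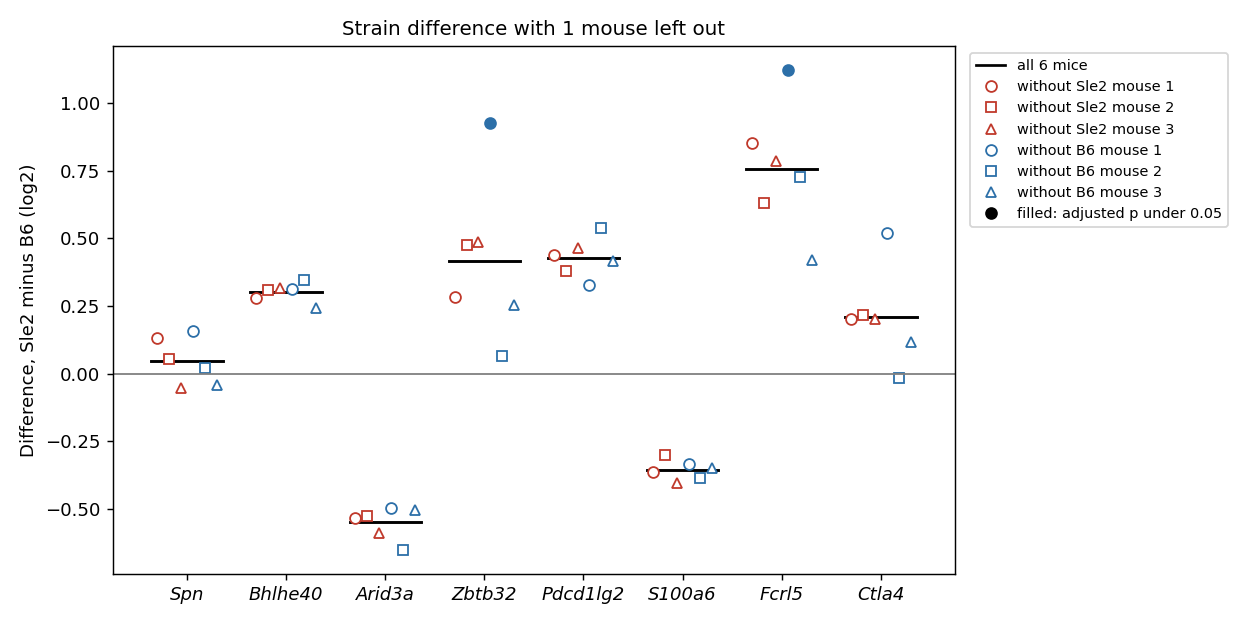
Difference of Sle2 minus B6 on the log2 scale for the 8 tested genes with all 6 mice (black line) and without each mouse in turn (Sle2 red, B6 blue), filled where the adjusted p was under 0.05. Zbtb32 and Fcrl5 move most, up to 0.93 and 1.12 without B6 mouse 1, while Arid3a and S100a6 stay below 0 throughout.

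Other genes that are higher in B-1 than in B-2 cells were split as well. Of 14 listed, 10 were tested and 0 were called by limma. At an unadjusted p under 0.05, 2 were higher and 3 lower, against 10.5% and 6.45% of all tested genes. Their median difference was -0.10, and 0.02 with equal medians, where all genes stood at 0.14. The 3 with the smallest p were all lower in Sle2: Vim (-0.58, SE 0.13, adjusted p = 0.0834), which encodes the intermediate filament vimentin, Lgals1 (-0.74, SE 0.17, adjusted p = 0.0878), the galectin of plasma cells and activated lymphocytes, and Ahnak (-1.13, SE 0.26, adjusted p = 0.0901), a large scaffold protein. Like S100a6, these genes are also transcribed in memory and activated lymphocytes and in myeloid cells.

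Ahnak was at 9.35, 9.74 and 9.78 in Sle2 mice 1, 2 and 3, against 10.12, 11.26 and 10.89 in B6 mice 1, 2 and 3. Its other 3 tested probes were at -1.26, -0.44 and -0.42, so all 4 were lower in Sle2. Lgals1 was at 8.47, 8.06 and 8.10 in Sle2 mice and at 8.89, 8.69 and 9.26 in B6 mice. Vim was at 10.68, 10.39 and 10.66 in Sle2 mice and at 11.04, 11.37 and 11.06 in B6 mice. The strains did not overlap in these 3 genes, which were lower, and in 1 of the 10 tested that was higher. Over all tested genes these shares were 9.45% and 14.7%. Ahnak passed in 5 of 18 alternatives, Vim in 4 and Lgals1 in 3. Without B6 mouse 1, Ahnak was at -1.45 (adjusted p = 0.0120). The other B-1-enriched genes Itgam, Il10, S100a4 and Cd36 were not detected on any array.

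Of 13 genes listed as needed by B-1 cells, 10 were tested and 0 were called by limma, and their median was -0.03. At an unadjusted p under 0.05, 0 were higher and 2 lower, against 10.5% and 6.45% of all tested genes. The strains did not overlap for 1 that was higher and 3 that were lower, against 14.7% and 9.45% of all tested genes. Pik3cd, the delta catalytic subunit of phosphoinositide 3-kinase, was at -0.28 (adjusted p = 0.221), and its other tested probe at -0.15 (adjusted p = 0.534). The gene lies on chromosome 4, as the Sle2 locus does, and the part of the locus in its values was not tested. Pik3ap1, the adaptor BCAP that couples B cell surface receptors to phosphoinositide 3-kinase, was at -0.24 (adjusted p = 0.228). Nfatc1, a calcium-dependent transcription factor, was at 0.23 (adjusted p = 0.331), but its 6 tested probes ran from -0.23 to 0.34. Lin28b, the RNA-binding protein of the fetal programme upstream of Arid3a, was not detected on any array.

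Siglecg, an inhibitory lectin whose loss in mice expands B-1a cells, was at 11.46, 11.40 and 11.56 in Sle2 mice 1, 2 and 3, against 11.81, 11.75 and 11.91 in B6 mice 1, 2 and 3. All Sle2 mice lay below all B6 mice, at a difference of -0.35 (SE 0.10, adjusted p = 0.142), and the gene's other tested probe was at -0.23 (adjusted p = 0.266). Siglecg passed only with a trended robust prior (adjusted p = 0.0301) among its alternatives. Of the other genes that restrain B-1 cells, the inhibitory co-receptor Cd22 was at 0.17 (adjusted p = 0.409). Cd72, encoded on chromosome 4, was at -0.01 (adjusted p = 0.960). The other tested probes of Cd22 were at -0.22 and 0.03, so the sign of Cd22 depended on the probe. Of the 4 tested of 5 listed, 0 were called by limma and 1 had an unadjusted p under 0.05, against 16.9% of all tested genes.

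Of 7 genes listed as higher in B-2 than in B-1 cells, 4 were tested, 0 were called by limma and 0 had an unadjusted p under 0.05, with a median of -0.06. The strains did not overlap for 1 of the 4, against 24.2% of all tested genes. This was Foxp1, a transcription factor of follicular B cells. It was at 9.84, 10.04 and 9.91 in Sle2 mice 1, 2 and 3, against 10.12, 10.35 and 10.06 in B6 mice 1, 2 and 3. Its difference was -0.25 (adjusted p = 0.302), and its other tested probe was at -0.37 (adjusted p = 0.161). Differences that did not pass either were those of Ccr7, the chemokine receptor that guides B cells to the T zone edge, at -0.25 (adjusted p = 0.383), and Cxcr5, the follicle-homing receptor, at 0.13 (adjusted p = 0.622). Bach2 was not detected on any array and Il4ra on too few.

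**Figure D5:**
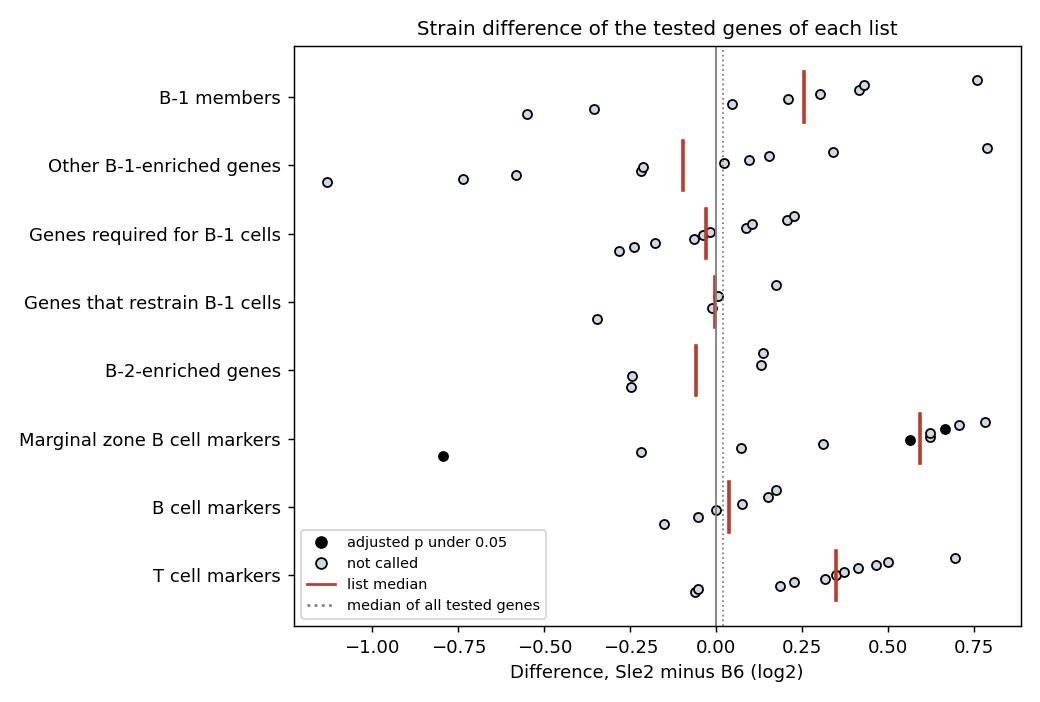
Difference of Sle2 minus B6 on the log2 scale for each tested gene of 8 lists, with red bars at the list medians and a dotted line at the median of all tested genes (0.02). The 10 other B-1-enriched genes run from -1.13 to 0.79, and filled points, which mark called genes, occur among the marginal zone markers alone.

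Plasma cells share CD43, Zbtb32 and Lgals1 with B-1 cells. Of 10 plasma cell markers 8 were tested and 0 were called by limma. At an unadjusted p under 0.05, 2 were higher and 0 lower, against 10.5% and 6.45% of all tested genes. Creld2, a chaperone of the endoplasmic reticulum, was at 0.36 (adjusted p = 0.150) and Derl3, of the degradation machinery there, at 0.66 (adjusted p = 0.190). The summed level of the 8 tested was between 12861 and 14229 in Sle2 and between 11613 and 12351 in B6. Most of it came from Mzb1, at a mean of 13.10 in Sle2 and 12.91 in B6, and Xbp1, at 11.63 and 11.40. The sum thus mainly follows Mzb1 (difference 0.19, adjusted p = 0.362) and Xbp1 (0.23, adjusted p = 0.490). The strains did not overlap for 2 of the 8 that were higher, Mzb1 among them, and for 1 that was lower. Over all tested genes these shares were 14.7% and 9.45%. Jchain and Prdm1, defining genes of antibody-secreting cells, were not detected on any array. The part of plasma cells in the Zbtb32 and Mzb1 values was not tested. Of the other marker lists, 5 natural killer, 8 erythroid and 7 platelet genes were tested and 0 of each were called by limma, with medians of 0.37, 0.44 and -0.29. At an unadjusted p under 0.05 were 1, 4 and 2 of them, against 16.9% of all tested genes.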

How the data were processed

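Biotin-labelled total RNA from splenic B cells was run on Illumina mouse BeadChips, per the labels. The submitters' processing notes name GenomeStudio for the deposited table of bead intensities, and its linear values were taken as not background-subtracted. Per the file headers, it also holds a detection p-value for every value. Intensities in the authors' series matrix are linear and share 1 distribution, so they were taken as quantile-normalized. Strain and mouse number came from the titles. Probes were named through the platform annotation, updated by gene identifier to RefSeq GRCm38.p6 (34885 probes with 1 symbol, 18 with several, 10378 with none).

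Intensities were background-corrected with normexp on 936 negative controls recovered from the detection p-values (offset 16), quantile-normalized and put on the log2 scale (neqc, limma 3.58.1, R 4.3.3). A probe was kept (17861 were) if at least 3 of 6 arrays had it at a detection p-value below 0.05, and a gene is its brightest kept probe. Strains were compared with lmFit and eBayes, two-sided, Benjamini-Hochberg adjusted over all kept probes. Differences are Sle2 minus B6. Summed levels are sums of linear normalized intensities over a list's tested genes. Where a strain had no array above background, the difference is a bound against the lowest detected value. The named genes are all members, the 3 of each pathway list with the smallest p plus called ones, and up to 2 of each marker list with the smallest p plus undetected ones. Genes that make up most of a summed level are named as well. Members and lists were chosen with earlier results of these data known. Same-numbered mice correlated at 0.20, 0.13 and 0.04 in their deviations from the strain means, and unlike-numbered mice at between -0.21 and 0.07. These values do not settle whether the numbers pair the mice. The main fit did not pair them, and a fit with the mouse number as a block is given among the alternatives. On data simulated for Sle2 against B6 over the 9297 genes, it found 9 of 50 genes shifted by 0.5 (log2), 36 of 50 shifted by 1 and 49 of 50 shifted by 2, and called 3 genes that were not shifted. The number of arrays limits the precision.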

Additional observations from a re-analysis of the deposited data

How the results depend on the processing

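The count of called genes moved with the alternatives, and so did some of the B-1 genes. It was 97 as reported, 200 without background correction, 245 with equal medians, 185 with the series matrix values, 56 with no filter, 285 with a trended robust prior, 181 with an offset of 50 and, in a fit added after seeing the data, 52 with Xist as a covariate. It was between 28 and 143 with single mice left out. Of calls, 89.4% were higher with equal medians, against 62.9% as reported. Of the B-1 genes, 0 were called as reported and 1 (Arid3a) without background correction, with the series matrix values, with a trended robust prior or with an offset of 50; 0 to 2 were with single mice left out. With the mouse number as a replicate block, 72 genes were called and 0 B-1 genes, and Ahnak (adjusted p = 0.0301), Bcl11b (0.0319) and the erythroid Slc4a1 (0.0454) passed. Spn, near 0 as reported, was at -0.090 with the mean of its kept probes and between -0.052 and 0.16 with single mice left out, and Ctla4 was between -0.016 and 0.52. The other 6 genes kept their direction in all alternatives run, though Zbtb32 ran from 0.066 to 0.93 and Fcrl5 from 0.42 to 1.12. With equal medians, the list medians were 0.11 for genes B-1 cells need, 0.13 for those that restrain them and 0.092 for B-2 genes, while all genes stood at 0.14. Except where the setting itself changes samples, probes or scaling, the cause was not tested. Cd5 and Bhlhe41 are limited by signal over background.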

Other observations

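Nt5e and Cd300lf were singled out after their values were seen. They are the 2 of the 10 tested other B-1-enriched genes that were higher in Sle2 at an unadjusted p under 0.05 (limma), beside the 3 lower ones. Nt5e, which encodes the ectoenzyme CD73 that makes adenosine, was at 6.71, 6.81 and 6.77 in Sle2 mice 1, 2 and 3, against 6.56, 5.99 and 5.38 in B6 mice 1, 2 and 3. The lowest Sle2 mouse was above the highest B6 mouse, at a difference of 0.79 (limma, SE 0.25, adjusted p = 0.176), and without B6 mouse 1 it was 1.08 (adjusted p = 0.0364). Cd300lf, an inhibitory receptor for phospholipids, was at 6.29, 6.41 and 6.11 in Sle2 mice and at 6.17, 5.87 and 5.75 in B6 mice, with B6 mouse 1 above Sle2 mouse 3 (difference 0.34, SE 0.14, adjusted p = 0.253). B6 mouse 1 was the highest of its strain for both.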
